A study of Mus musculus with 18 samples.

Results

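The kidney transcriptome of Clr-f-/- mice was compared with that of WT mice at 13 weeks of age, gene by gene, after the dependence of each library on the GC content and length of the genes had been removed. Of the 53383 rows of the count table, 13864 reached 1 CPM (counts per 1000000 counts of the library) in at least 3 of the 6 libraries of that age. The GC content was known for 13829 of these rows, and these were tested. Whole kidneys of C57BL/6 mice were sampled at 7, 13 and 24 weeks, with 3 libraries for each genotype and age and 18 in all, and only the 6 libraries of 13 weeks entered the comparisons unless another age is named. The WT mice were age- and sex-matched. The Clr-f-/- line lacks exons 3, 4 and part of 5 of Clec2h in the germline. They were replaced by a floxed neomycin cassette through homologous recombination in Bruce-4 embryonic stem cells, and the cassette was then taken out by crossing to a CMV-Cre transgene, which acts in all tissues. Totals at 13 weeks ranged from 22193736 to 32742734 counts per library. All 6 libraries carried counts of Y-linked genes, and no pair within a group agreed within sampling noise. By CPM, the Y-linked genes Kdm5d, Uty, Ddx3y and Eif2s3y were each lower in all libraries labelled Clr-f-/- than in WT. Eif2s3y measured 51.8, 65.4 and 56 CPM in WT and 10.5, 1.19 and 2.34 CPM in the libraries labelled Clr-f-/-. The source of this difference was not tested. By the study's methods each group was made up of 3 mice. In whole tissue, fewer cells of a type and less RNA per cell cannot be told apart.

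Clec2h, which codes for the cell surface protein Clr-f, lies on chromosome 6 among a cluster of genes for lectin-like receptors of natural killer cells and their ligands. Clr proteins are ligands of the NKR-P1 receptors of lymphocytes. NKR-P1G, encoded by Klrb1, binds Clr-f and further Clr proteins, and the inhibitory NKR-P1B, encoded by Klrb1b, binds Clr-b, encoded by Clec2d. Clr-f is known for its expression by epithelia of the kidney and intestine. Kidney RNA is dominated by the tubule epithelium, above all the proximal tubule, which reabsorbs solutes with the energy of its many mitochondria.

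The 3 libraries labelled Clr-f-/- at 13 weeks differed from the other 15 libraries by the base composition of the genes they counted. Genes were divided by the GC content of their exons into 10 classes of equal size. In the class with the lowest GC content, 31.2% to 41.4%, the median gene stood at 0.446, 0.0614 and 0.108 times its WT mean in replicates 1, 2 and 3. In the class with the highest GC content, 57.3% to 75.5%, it stood at 1.27, 1.66 and 1.68 times the WT mean. Length had a weaker gradient: in the longest class the median gene stood at 0.740, 0.232 and 0.202 times WT. GC content and length accounted for 44.3%, 61.0% and 51.9% of the variance of the log2 differences of these 3 libraries, against 0.231% to 4.98% in the other 15. GC content alone accounted for 44.23%, 60.35% and 50.38% of this variance in replicates 1, 2 and 3, and length alone for 4.46%, 8.95% and 10.6%. The 3 libraries also carried counts for fewer rows, 23732, 20767 and 19541, than the WT libraries of the same age, of which the lowest had 24653. Genotype and this property cannot be told apart as a whole at 13 weeks, since all 3 libraries of 1 group carry it.

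**Figure D1:**
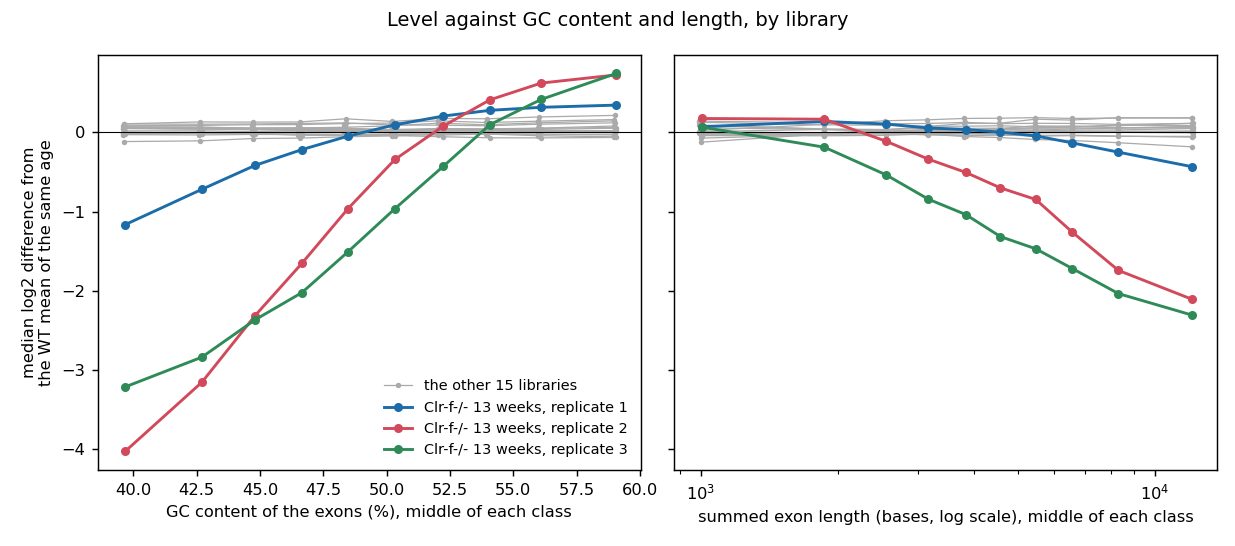
Median log2 difference of each library from the WT mean of its own age, in 10 classes of GC content (left, percent) and 10 classes of exon length (right, bases on a log scale), for 13-week libraries labelled Clr-f-/- in colour and the other 15 libraries in grey. The grey lines stay between -0.18 and 0.22, while the coloured lines climb from -1.16, -4.03 and -3.21 in the class of lowest GC content to 0.34, 0.73 and 0.74 in the class of highest GC content.

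The sequences of 4 genes show what this contrast looks like at the level of bases. Each stretch is coding sequence of 90 bases, taken where its GC content is nearest to that of all exons of the gene, with G and C in capitals. Chpt1 and B2m are poor in G and C, and Tmem160 and Crocc are rich in them. The positions are chr10:88480843-88480932 on the minus strand in exon 5 for Chpt1, chr2:122150925-122151014 on the plus strand in exon 2 for B2m, chr7:16455229-16455318 on the plus strand in exon 3 for Tmem160, and chr4:141052984-141053073 on the minus strand in exon 2 for Crocc (GRCm38.p6, GENCODE M21 transcripts).
Chpt1: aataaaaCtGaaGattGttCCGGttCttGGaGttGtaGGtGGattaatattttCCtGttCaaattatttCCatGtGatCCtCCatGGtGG
B2m: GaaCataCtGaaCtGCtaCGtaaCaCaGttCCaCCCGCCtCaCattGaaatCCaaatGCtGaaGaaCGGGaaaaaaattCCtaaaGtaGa
Tmem160: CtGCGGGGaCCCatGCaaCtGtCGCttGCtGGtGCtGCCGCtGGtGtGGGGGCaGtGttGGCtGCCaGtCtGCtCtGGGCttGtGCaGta
Crocc: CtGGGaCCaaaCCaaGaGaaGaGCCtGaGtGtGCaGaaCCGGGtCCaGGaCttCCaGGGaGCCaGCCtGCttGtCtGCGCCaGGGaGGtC

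Of the rows called as deposited, Chpt1 was among the 3 whose fold changes moved up most when the trends were removed, and Tmem160 among the 3 that moved down most. Chpt1, a choline phosphotransferase of phosphatidylcholine synthesis with a GC content of 36.2%, measured 1886, 2454 and 2288 CPM in the WT libraries 1, 2 and 3 and 1271, 604 and 510.1 CPM in the libraries labelled Clr-f-/-. As deposited it was lower by a log2 fold change of -0.98 (adjusted p = 0.045, edgeR quasi-likelihood test), and with the trends removed its log2 fold change was 1.75 (SE 0.46) with an adjusted p of 0.0535. Tmem160, with a GC content of 64.0%, measured 38.0, 28.6 and 31.4 CPM in WT and 40.6, 97.1 and 237 CPM in the libraries labelled Clr-f-/-. Its log2 fold change went from 2.83 as deposited (adjusted p = 0.04) to 0.92 (SE 0.39) with an adjusted p of 0.126, and the 2 groups then overlapped. B2m and Crocc, described with their groups, kept their directions against the gradient of their composition.

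Over all rows, 5352 of 13829 (38.7%) passed an adjusted p of 0.05 in the counts as deposited, 3019 higher and 2333 lower in the libraries labelled Clr-f-/-. With a spline of GC content and length fitted to each library and entered as an offset, 1179 passed (8.53%), of which 759 were higher (5.49%) and 420 lower (3.04%). The fits shared 646 calls. Of the 1179, 974 had the same sign in the counts as deposited. Spearman's rho between GC content and log2 fold change across rows fell from 0.770 to 0.024, and the range between the quartiles of the fold changes narrowed from between -1.09 and 0.97 to between -0.46 and 0.59. Genes are not independent replicates, and these values describe the 2 fits. Scaling matters here: relative to library totals, as CPM are given, the median row lay at -0.03, -0.74 and -1.27 on the log2 scale from its WT mean in replicates 1, 2 and 3, and the median fold change was -0.04 with TMM scaling as deposited and 0.07 with the trends removed. A gene can thus have lower CPM and a positive fold change. A fold change with the trends removed is a difference from WT relative to genes of like GC content and length.

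**Figure D2:**
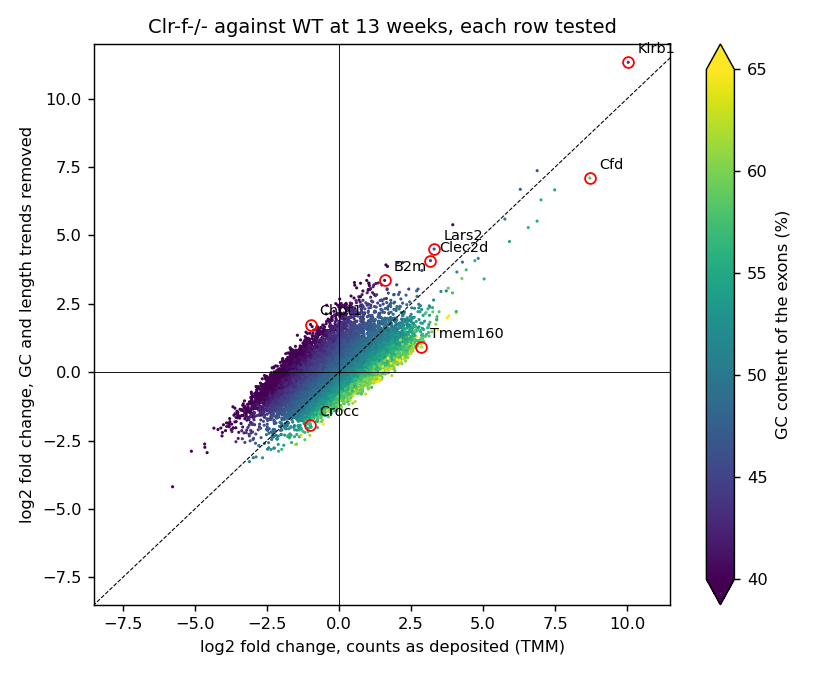
Log2 fold change of each of the 13829 rows tested, libraries labelled Clr-f-/- against WT at 13 weeks, as deposited (x axis) and with the GC and length trends removed (y axis), coloured by GC content. Genes of low GC content lie above the dashed line of equality and genes of high GC content below it, and Klrb1 stands apart at 10.04 and 11.33.

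In all 1179 the groups did not overlap, as was true of 49.6% of all rows tested with trends removed and 62% as deposited. These calls lie close to the threshold. Of the 1179, 1177 had an adjusted p between 0.04 and 0.05, and 5424 rows had an unadjusted p under 0.05. Without replicate 2 of the libraries labelled Clr-f-/- no row passed (4012 had an unadjusted p under 0.05), without replicate 3 there were 3 calls, and without replicate 1 there were 7799. Leaving out any 1 WT library left 1 call. Of the 1179 calls, 1161 of 1161 rows still tested kept their sign without replicate 1, 1161 of 1161 without replicate 2 and 1162 of 1162 without replicate 3. As the groups did not overlap in these rows, leaving out 1 library could hardly turn a sign, so this does not measure stability. All other genes named below as having risen or fallen had an adjusted p between 0.0425 and 0.05 unless a value is given, and the values of all 6 libraries stand beside the genes on which most weight is laid. After the trends were removed, 63.3% of all rows had the same sign in all 3 libraries labelled Clr-f-/-, against 72% before, and their differences from WT correlated across rows with r = 0.641 for replicates 1 and 2, 0.515 for 1 and 3 and 0.812 for 2 and 3.

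The deleted gene was examined first. The deposited counts cover the whole of Clec2h, so reads of the exons outside the deletion are included. Exon 3, the first of the deleted exons, codes for part of the extracellular lectin-like domain and lies at chr6:128673976-128674160 on the plus strand (GRCm38.p6), as the third of 5 exons in the transcript read here, here with G and C in capitals.
Clec2h exon 3: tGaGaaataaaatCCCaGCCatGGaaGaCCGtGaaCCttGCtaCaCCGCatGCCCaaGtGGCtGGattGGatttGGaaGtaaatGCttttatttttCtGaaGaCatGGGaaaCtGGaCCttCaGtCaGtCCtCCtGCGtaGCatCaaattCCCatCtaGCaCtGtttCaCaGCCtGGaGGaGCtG

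Clec2h (ENSMUSG00000030364) lies at chr6:128662385-128677374 on the plus strand. It measured 65.6, 42.8 and 25.1 CPM in the WT libraries and 35.0, 19.2 and 19.4 CPM in the libraries labelled Clr-f-/-. The groups overlapped. Its log2 fold change was -0.30 as deposited (adjusted p = 0.494) and 1.37 (SE 0.44) with the trends removed (adjusted p = 0.0709, edgeR quasi-likelihood test). Counts of the whole gene therefore did not separate the genotypes, and no count of the deleted exons alone was used here.

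Klrb1, the receptor gene of the same pair, did separate them. It lies close by, at chr6:128705836-128723059 on the minus strand, and had 0, 3 and 1 counts in the WT libraries and 64.0, 31.0 and 23.5 CPM in the libraries labelled Clr-f-/-. The summed libraries differed 888-fold, with an exact 95% interval from 346.5 to 3260.0 that covers counting error only. It passed the filter only through the libraries in which it was high, so its adjusted p at 13 weeks is not used as support. Klrb1 was also 1 of the 7 genes called in the same direction at 7 weeks and the 1 gene called in the same direction at 24 weeks. The same filter was applied at those ages, so these calls are not used as support either. Clec2d, which encodes Clr-b and lies at chr6:129180615-129186534 on the plus strand, measured 25.2, 39.3 and 23.3 CPM in WT and 65.8, 68.6 and 294 CPM in the libraries labelled Clr-f-/-. It rose by a log2 fold change of 4.08, with an SE of 0.87 and an adjusted p of 0.0488, and each library labelled Clr-f-/- lay above all WT libraries. Of the genes of like GC content and length, at least 99.3% lay below it in each of the 3 libraries. Its receptor gene Klrb1b stayed under the filter, with 8, 9 and 3 counts in WT and 9, 1 and 0 in the libraries labelled Clr-f-/-. Of the 13 Clr and NKR-P1 genes examined, 12 had a row in the table and 3 were tested. Of those under the filter Clec2i had the most counts in WT, with 13, 12 and 14 counts in WT and 3, 0 and 2 in the libraries labelled Clr-f-/-.

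Of the 22 tested rows within 1000000 bases of Clec2h, 4 were called, all higher, where 8.53% of all rows were called and 5.49% were higher. Klrb1, kept by the filter only for its high libraries, is 1 of them, so this count is no result beside that share. The 4 were Klrb1, Clec2d, BC064078 and 2310001H17Rik. BC064078 measured 2.83, 3.29 and 3.41 CPM in WT and 3.82, 1.41 and 1.98 CPM in the libraries labelled Clr-f-/-, with a log2 fold change of 1.46 (SE 0.31) once the trends were removed and 0.12 as deposited. For 2310001H17Rik the log2 fold changes were 2.47 (SE 0.56) and 0.26. Neither passed in the counts as deposited (adjusted p = 0.78 and 0.582), and strand of the counting is not given in the sources used here, so neighbouring transcripts that overlap cannot be told apart.

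The genes named next are the 12 with the largest increases and the 12 with the largest decreases among called genes with a mean of at least 5 CPM, no overlap of the groups and the same sign as deposited. Several were near or under 1 CPM in WT and were tested because the libraries labelled Clr-f-/- carried them over the filter, so their place among the largest is set by that and their values are a description. Fat cell genes were of this kind. Cfd, the complement factor D secreted by adipocytes, measured 0.717, 0.598 and 1.25 CPM in WT and 13.9, 561 and 71.6 CPM in the libraries labelled Clr-f-/-, and its log2 fold change was 7.10 (SE 1.35). Adipoq, Plin1, Cidea, Cidec and Thrsp, genes of the adipokine adiponectin, of the lipid droplet coat and of lipogenesis, stood at 6.69, 6.67, 5.52, 5.29 and 4.16 on the log2 scale. Of 13 adipocyte markers 11 passed the filter, but 6 of these were under 1 CPM in at least 1 WT library and passed through the libraries in which they were high, so no count is drawn from them. Of the 5 that reached 1 CPM in every WT library, 2 rose, Thrsp among them, and the other 3 lay between 0.70 and 1.55. The summed CPM of the 13 markers was 97.7, 107 and 103 in WT and 136, 1148 and 210 in the libraries labelled Clr-f-/-, so replicate 2 carried most of it. Hp, the haptoglobin gene, which adipocytes also express, followed the same order with 2.05, 52.2 and 5.95 CPM against 0.681, 0.598 and 0.341 CPM in WT. The part of fat tissue in these values was not tested.

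Other genes had another order of libraries. Lars2, the mitochondrial leucyl-tRNA synthetase, measured 152, 157 and 161 CPM in WT and 240.3, 959 and 1353 CPM in the libraries labelled Clr-f-/-, with a log2 fold change of 4.50 (SE 0.95). Gm15564, a non-coding antisense row, measured 1.90, 1.96 and 1.67 CPM and 4.31, 22.8 and 31.9 CPM, and its log2 fold change was 4.03 (SE 0.81). In both, replicate 3 was the highest library and replicate 1 the lowest of its group. Fcgbp, an IgG Fc binding protein of mucous epithelia, ran the other way, with 38.6, 23.7 and 2.07 CPM against 0.86, 1.16 and 1.10 CPM in WT. Bhlhe40, a transcriptional repressor of the circadian system, was among the most even of the increases: its differences from WT with the trends removed were 1.69, 2.07 and 1.88 on the log2 scale in replicates 1, 2 and 3, and its log2 fold change was 1.88, with an SE of 0.20 and an adjusted p of 0.0425.

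The 12 largest decreases reached from -2.68 to -1.92 on the log2 scale. C030005K06Rik, a non-coding transcript, measured 14.0, 15.9 and 19.5 CPM in WT and 5.01, 0.434 and 0.496 CPM in the libraries labelled Clr-f-/-. Palm3, a paralemmin-family membrane protein, measured 28.5, 18.2 and 19.7 and 7.91, 4.12 and 4.37 CPM, with a log2 fold change of -2.28 (SE 0.31). Both were lower in each library labelled Clr-f-/- than in any WT library, as were the other 10. Zfc3h1 and Frs3 had the smallest p-values among the decreases and were even across libraries. Zfc3h1, a zinc finger protein of nuclear RNA decay, measured 57.2, 53.3 and 59.7 CPM in WT and 11.7, 2.49 and 2.48 CPM, and its differences with the trends removed were -1.79, -2.01 and -1.92 in replicates 1, 2 and 3. Its log2 fold change was -1.90 (SE 0.17) with an adjusted p of 0.0383. Frs3, an adaptor of fibroblast growth factor receptors, measured 19.3, 15.6 and 17.9 CPM and 7.18, 7.63 and 7.16 CPM, with differences of -1.68, -1.83 and -1.90. Of the remaining decreases, AI480526 fell to -2.30, Zfp101 to -2.17, Fam208b to -2.10, E130102H24Rik to -2.06, Col16a1 to -2.03, 2900052L18Rik to -2.02 and Paxbp1 to -1.99.

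**Figure D3:**
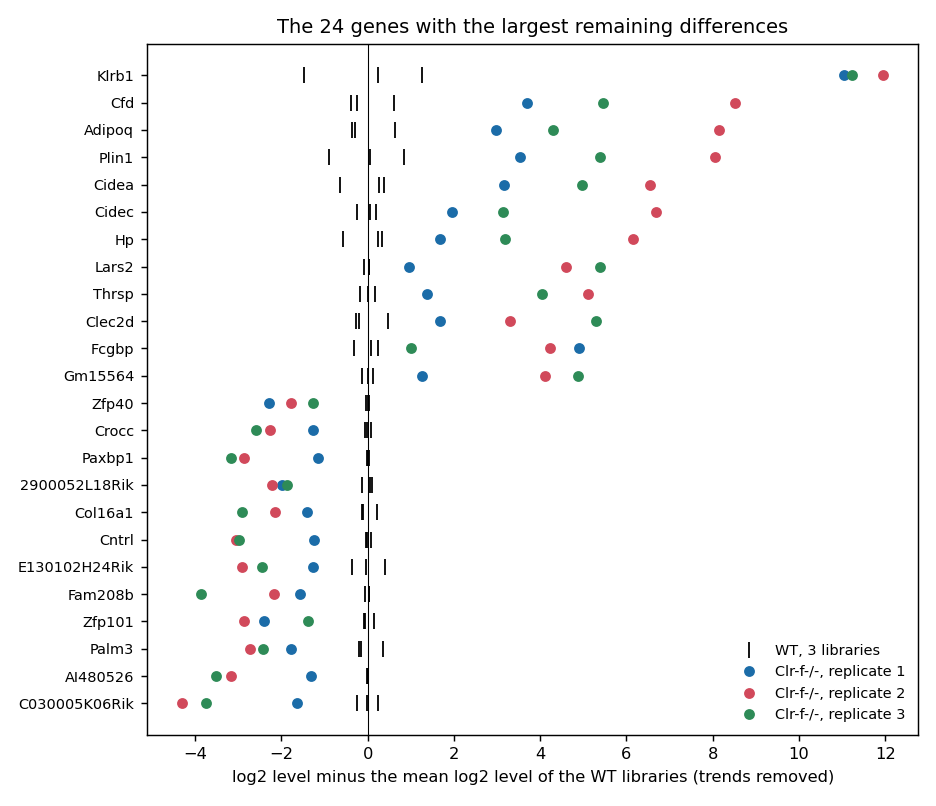
Level of the 24 genes with the largest remaining differences in each of the 6 libraries of 13 weeks, as log2 level minus the mean of the WT libraries, with the GC and length trends removed. Black bars are the 3 WT libraries and coloured points the 3 libraries labelled Clr-f-/-, which lie outside the WT range for all 24 genes because the genes were chosen for it.

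Genes were also ranked within their own class of GC content and length, about 138 genes to a class, without any fitted curve. Among all rows, 116 (0.839%) lay in the top 5% of their class in all 3 libraries labelled Clr-f-/- and 156 (1.13%) in the bottom 5%. Of the 116, 86 were genes with a mean of at least 5 CPM, and 82 of these 86 were also above WT as deposited. Of the 156, 48 were such genes and all 48 were also below WT as deposited. Since these genes were picked by their values, they are described and not tested. The following genes were named after their values had been seen.

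Among the genes at the top of their class Mrpl17, of the mitochondrial ribosome, measured 59.0, 56.8 and 58.0 CPM in WT and 79.7, 139 and 197 CPM in the libraries labelled Clr-f-/-, with a log2 fold change of 4.01 (SE 0.79) against 2.05 as deposited. Picked by their values from the same end, with no count over the other genes of this ribosome, Mrpl57, Mrpl15, Mrps30 and Mrpl16 stood at 3.19, 2.91, 2.51 and 2.30 on the log2 scale, against 1.49, 0.98, 0.45 and 0.78 in the counts as deposited. The same end held the haemoglobin genes of red blood cells, of which Hbb-bs measured 164, 75.9 and 67.3 CPM in WT and 301, 567 and 1335 CPM and Hba-a1 89.9, 37.2 and 31.4 and 153, 313 and 469.8 CPM. Cdkn1a, the cyclin-dependent kinase inhibitor p21, measured 7.03, 4.49 and 4.70 and 19.4, 16.6 and 18.3 CPM, a log2 fold change of 1.87 (SE 0.27). Tmem252 measured 74.8, 125 and 177 and 382, 339 and 231 CPM and was above every other gene of its class in all 3 libraries.

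At the bottom of its class Crocc, which encodes rootletin of the ciliary rootlet and is rich in G and C, measured 105, 87.1 and 93.0 CPM in WT and 50.1, 27.4 and 22.5 CPM in the libraries labelled Clr-f-/-. It fell by a log2 fold change of -1.93 (SE 0.34), and by -0.99 as deposited, while the genes of its class had a median difference of 0.36, 0.34 and 0.01 from WT in these libraries. Cntrl, which encodes the centrosome protein centriolin, measured 17.7, 15.5 and 16.2 CPM in WT and 5.44, 0.47 and 0.406 CPM. Cep250 and Cep131 fell to -1.77 and -1.59, and Ninl and Lrrc45 stood at -2.06 and -1.66 with adjusted p-values of 0.0602 and 0.0602. Neat1, the nuclear RNA on which paraspeckles form, measured 1436, 1355 and 1357 CPM in WT and 466, 25.4 and 17.6 CPM and was below every other gene of its class in all 3 libraries. Its log2 fold change was -2.60 (SE 0.82) with an adjusted p of 0.0682. With the trends removed the differences of the 3 libraries were -1.34, -4.32 and -4.35, with replicate 1 far from the other two.

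The gene lists were read by counts and medians beside all rows, of which 8.53% were called with a median of 0.07. Markers of the nephron segments were present, with 72 of 74 over the filter, and gave few calls. None was called of 12 podocyte, 14 proximal tubule S1 and S2, 9 proximal tubule S3, 10 thick ascending limb, 9 distal convoluted tubule and 10 intercalated cell markers, and their medians lay between -0.05 and 0.55 on the log2 scale. As deposited the S3 median of 0.35 was -0.49 and the distal convoluted tubule median of -0.05 was -0.83. The medians of the other segment lists were higher as deposited, and that of the principal cell markers went from 0.21 to 0.94. Of 8 principal cell markers 5 were called higher as deposited, where 21.8% of all rows were. With the trends removed 1 of the 8 was called: Fxyd4, a regulator of the sodium pump, rose by 0.90 (SE 0.17). The organic anion transporter Slc22a6, a proximal tubule marker, measured 940.0, 1183 and 1240.3 CPM in WT and 1438, 2483 and 1531 CPM, a log2 fold change of 1.17 (SE 0.37) with an adjusted p of 0.0693. The endocytic receptor gene Cubn had 506, 371 and 426 CPM in WT and 323, 335 and 349 CPM. With trends removed its log2 fold change was 1.81 with an adjusted p of 0.0588, and replicate 1 lay within the WT range.

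Among the 27 transporters of endogenous solutes in the proximal tubule, 3 rose: Slc15a2, the peptide transporter PEPT2, by 2.16 (SE 0.52), Slc17a3, an organic anion transporter, by 1.40 (SE 0.34), and Abcg2, the urate and drug exporter, by 1.09 (SE 0.20). All 3 are poor in G and C and their deposited log2 fold changes were -0.03, -0.35 and -0.97, so the sign of each turned with the removal of the trends. Of 10 tubular injury genes, Vim, the intermediate filament of mesenchyme and injured tubules, rose by 1.26 (SE 0.31) and the adhesion molecule gene Vcam1 by 1.09 (SE 0.24), against 0.85 and -0.67 as deposited. Spp1, the osteopontin gene, measured 921, 532 and 543 CPM in WT and 252, 32.1 and 77.0 CPM and had a log2 fold change of -1.15 (SE 0.37) with an adjusted p of 0.0697.

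Of 13 fibroblast and mural cell markers 3 rose and none fell, 8 lay above 0 and 5 below, and the median was 0.48. Acta2, smooth muscle actin, measured 39.0, 36.3 and 31.5 CPM in WT and 70.7, 78.2 and 81.0 CPM and rose by 1.89 (SE 0.33). Dcn, decorin, rose by 2.51 (SE 0.44) and Col1a2, the collagen chain α2(I), by 2.32 (SE 0.49), against 0.08 and 0.90 as deposited. Of 13 endothelial markers, Emcn, Ehd3 and Pecam1 rose, by 1.97, 1.07 and 0.91, against -0.10, 0.97 and 0.56 as deposited, and none fell. In contrast, of 25 extracellular matrix and adhesion receptor genes the only call was Col4a3, a chain of the collagen IV of the glomerular basement membrane, which measured 208, 283 and 232 CPM in WT and 94.9, 20.9 and 25.4 CPM and fell by a log2 fold change of -1.72 (SE 0.32).

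Immune genes were examined because Clr-f is a ligand of lymphocyte receptors. Of 21 genes of interferon response and antigen presentation 3 rose and none fell, with a median of 0.71. B2m, the light chain of MHC class I, measured 181, 175 and 163 CPM in WT and 215, 323 and 389 CPM in the libraries labelled Clr-f-/-. Its log2 fold change was 1.59 as deposited and 3.36 (SE 0.63) with the trends removed, and at least 97.8% of the genes of its class lay below it in each library. The chemokine genes Cxcl9 and Cxcl10 rose by 2.45 and 1.85. Cxcl10 measured 2.40, 2.62 and 2.27 CPM in WT and 4.92, 4.66 and 3.15 CPM, close to the filter. Of 19 macrophage and dendritic cell markers, the MHC class II genes H2-Aa and H2-Eb1 rose, with 86.7, 121 and 147 CPM against 64.3, 55.2 and 61.6 CPM in WT for H2-Aa. Cx3cr1, the fractalkine receptor of resident macrophages, fell by a log2 fold change of -1.11 (SE 0.25). The median of these 19 was 0.31, with 12 above 0 and 7 below. As deposited it was 1.38, with 10 called higher and 2 lower, where 21.8% of all rows were called higher and 16.9% lower. The summed CPM of the 20 macrophage and dendritic cell markers was 464.5 to 504.5 in WT and 686, 1148 and 1419 in the libraries labelled Clr-f-/-. Lymphocyte markers were at the limit of these data: 3 of 16 T and NK cell and 4 of 10 B and plasma cell markers passed the filter, none was called, and their summed CPM was 7.35 to 9.29 in WT against 10.3 to 13.5 for T and NK cells and 11.6 to 22.5 against 11.8, 40.1 and 11.0 for B and plasma cells. The high value was that of replicate 2, without which the median of the B and plasma cell list turned from 0.81 to -0.34. None of 12 complement genes was called. The part of immune cell numbers in the increases was not tested.

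In the list of immediate early and heat shock genes replicate 1 was highest, as it was by CPM for Fcgbp and Tmem252. Of 15 immediate early and heat shock genes tested, Hsp90aa1, a cytosolic chaperone, stood lower, at -1.37 with an adjusted p of 0.0488 with edgeR. No count of increases is drawn, because Fosb and Atf3 passed the filter through the libraries in which they were high. The medians of the list in replicates 1, 2 and 3 were 1.97, 0.90 and 0.31. Egr1, a transcription factor induced within minutes of stimulation, measured 2.65, 2.82 and 3.10 CPM in WT and 106, 31.4 and 11.1 CPM in the libraries labelled Clr-f-/- and rose by 3.74 (SE 0.75). Fosb and Atf3 stood at 6.30 and 3.66, with 25.6, 12.3 and 1.98 CPM of Atf3 against 0.896, 0.997 and 1.06 CPM in WT. Of 16 endoplasmic reticulum stress genes, Xbp1 and Manf rose, by 1.20 (SE 0.20) and 1.38 (SE 0.28). The differences of Xbp1 from WT were even, 1.16, 1.15 and 1.33 in replicates 1, 2 and 3. Of 18 genes of NRF2 and oxidative stress the glutathione transferase Gsta3 rose by 1.58 (SE 0.28), against -0.27 as deposited.

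Of 72 nuclear-encoded subunits of the respiratory chain 12 rose and none fell, 61 lay above 0, and the median was 0.82. The medians in the 3 libraries were 0.17, 0.89 and 1.16, so replicate 1 showed little of it. Atp5l and Atp5f1, subunits of ATP synthase, rose by 2.52 (SE 0.45) and 1.16 (SE 0.22), and Ndufv2 of complex I by 1.76 (SE 0.34), against 0.25, -0.64 and 0.13 as deposited. Of the 13 mitochondrially encoded genes, whose GC content had a median of 37.1%, 12 were called higher with a median of 2.17, but as deposited the median was 0.18 and the summed CPM was 83110 to 93290 in WT and 73140 to 83030 in the libraries labelled Clr-f-/-. With trends removed the sum was 216900, 1105000 and 488100 in replicates 1, 2 and 3, in replicate 2 more than a whole library, so these calls are not read as a rise. The complex I gene mt-Nd3 measured 5.31, 4.92 and 5.53 CPM in WT and 5.31, 1.34 and 4.87 CPM, and its log2 fold change of 2.17 (SE 0.23) became -0.36 when an interaction of GC content with length was fitted. Of 80 cytosolic ribosomal protein genes 7 rose, among them Rps20 by 2.02 (SE 0.47), none fell, and the median was 0.67. Of all rows 8.53% were called and 5.49% were higher, so this count is near the share over all rows and is no result. The medians of these genes in replicates 1, 2 and 3 were 0.11, 0.82 and 1.06, so replicate 1 showed little of it. As deposited the median was 1.40. Of 22 DNA replication and mitosis genes 1 was called, the proliferation gene Mki67, which fell to -1.65, and the median was 0.08.

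Of 27 fatty acid oxidation genes, Hadhb, a subunit of the mitochondrial trifunctional protein, rose by 1.92 (SE 0.38), against -0.24 as deposited. Of 18 genes of fatty acid and triglyceride synthesis and storage, Mgll and Acaca rose: Mgll, the monoacylglycerol lipase, measured 95.1, 59.4 and 71.9 CPM in WT and 242, 537 and 487 CPM, a log2 fold change of 2.36 (SE 0.38), and Acaca, acetyl-CoA carboxylase, rose by 2.23 (SE 0.47). Of 21 sterol genes, Ebp and Nsdhl, enzymes of late cholesterol synthesis, rose by 2.68 and 1.56. Of 26 lysosome genes 4 rose and none fell, 24 lay above 0, and the median was 0.72. Their medians in replicates 1, 2 and 3 were 0.13, 0.82 and 0.85, so replicate 1 showed little of it, and as deposited the median was 1.01. Ctsh, the protease cathepsin H, measured 183, 212 and 214 CPM in WT and 318, 381 and 297 CPM. Npc1, the cholesterol transporter of the lysosome, and Asah1, acid ceramidase, rose by 1.22 and 0.70, and Asah1 had been at -0.86 as deposited. Other metabolic lists gave at most 1 call each: none of 17 tricarboxylic acid cycle genes, with a median of 0.46, and Cyp2e1, a cytochrome P450, at 2.19 among 9 androgen-regulated and sex-biased genes. Bhlhe40 was the 1 call among 17 circadian clock genes.

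Of all lists, the zinc finger genes held the most decreases. Of 316 tested genes named Zfp, many of which encode KRAB zinc finger repressors of transposable elements, 29 fell and 2 rose, where 3.04% and 5.49% of all rows did so. Their median was -0.44 and -0.32, -0.55 and -0.48 in replicates 1, 2 and 3. As deposited it was -1.35, with a median GC content of 44.5% over the list. Zfp40 measured 10.4, 9.80 and 10.0 CPM in WT and 0.764, 0.145 and 0.406 CPM in the libraries labelled Clr-f-/-, and Zfp946, Zfp932 and Zfp942 fell to -1.85, -1.48 and -1.42. Zinc finger genes share sequence with each other, and how reads with several matches were counted is not given in the sources used here. Of 47 cilium and intraflagellar transport genes 3 fell and 2 rose, with a median of -0.32. Cep290 of the ciliary transition zone and the kinesin gene Kif3a fell to -1.52 and -1.01. Of 50 mRNA splicing genes 7 rose and 2 fell. Among them Hnrnpc and Sf3b3 rose by 1.40 and 1.84, against -0.54 and 0.42 as deposited, Luc7l3 fell to -1.10, and the median of the list turned from -0.59 as deposited to 0.32.

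**Figure D4:**
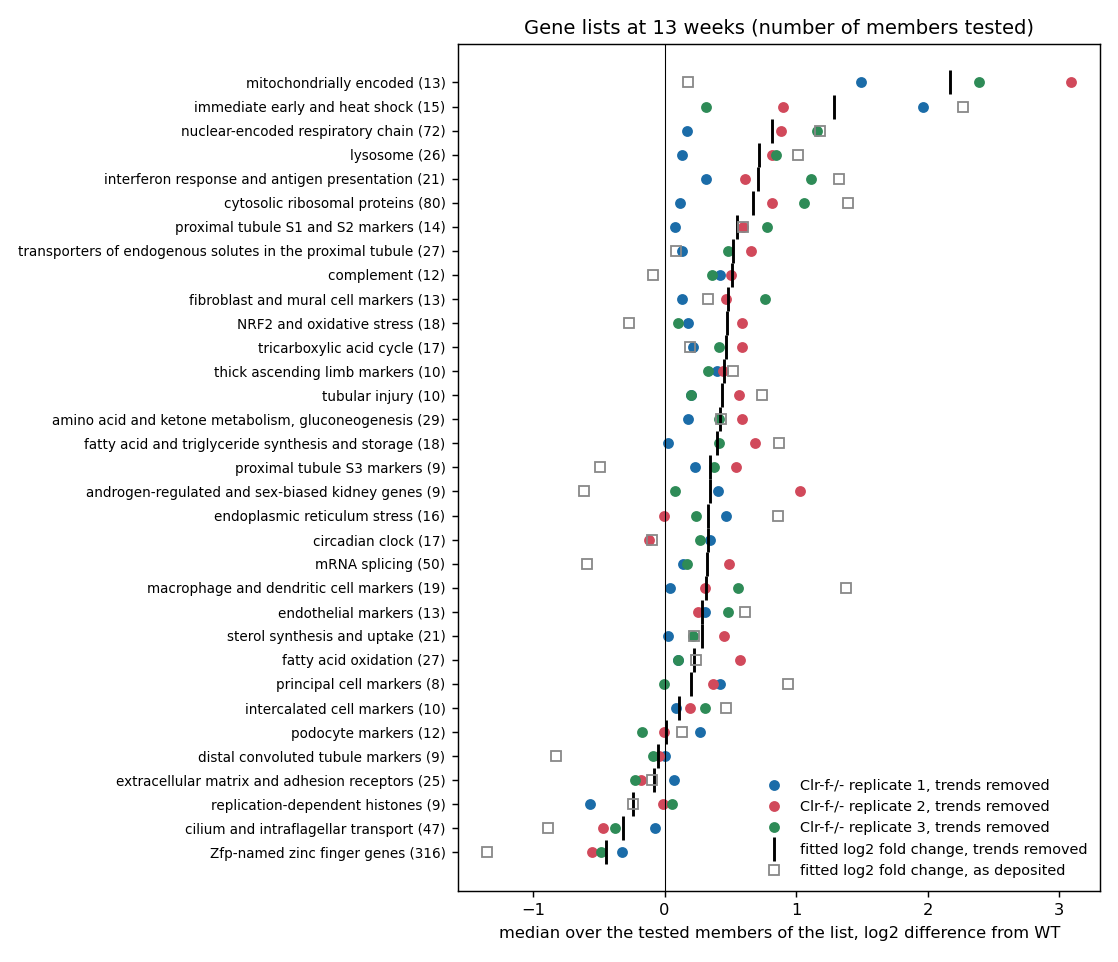
Median log2 difference from WT over the tested members of each list with at least 8 members, adipocyte markers left out, with trends removed for each library labelled Clr-f-/- (coloured points) and in the fit (black bars), and as deposited (open squares). Replicate 1 lies nearest to 0 in most of these lists, and the open squares of the zinc finger and splicing genes lie at -1.35 and -0.59.

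The comparison across ages asked whether these differences were shared with 7 and 24 weeks. Fitted alone with trends removed, 95 rows passed at 7 weeks (0.67%) and 5 at 24 weeks (0.0351%). Of the 95 called at 7 weeks, 88 were tested at 13 weeks, where 8.53% of all rows were called, and 7 were called in the same direction, namely Acta2, Col1a2, Fbln5, Fga, Fgfbp3, Klrb1 and Mgll, which was 7.37% of the 7-week list and 0.594% of the 13-week list. In 1 fit over 18 libraries and 14893 rows, the effect at 13 weeks differed from the mean of the effects at 7 and 24 weeks in 6305 rows (42.3%), higher in 3767 (25.3%) and lower in 2538 (17%). That fit used 1 estimate of spread for all groups, and whether the groups share it was not tested. Replicates 2 and 3 of the libraries labelled Clr-f-/- of 13 weeks differed most from WT across rows. The SD of their log2 differences across rows after the trends were removed was 1.19 and 1.25, against 0.556 in replicate 1 and 0.214 to 0.666 in the other 15 libraries. This SD is taken across the rows of 1 library and does not measure the spread between replicates.

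Klrb1 was far above WT at all 3 ages. Its log2 fold changes were 10.39, 11.43 and 9.93 at 7, 13 and 24 weeks, and the 13-week value differed from the mean of the other two by 1.27 (SE 1.47) with an adjusted p of 0.504 (edgeR). Clec2d rose at 13 weeks and measured -0.04 and -0.17 at 7 and 24 weeks, a difference of 4.29 (SE 0.72) with an adjusted p of 0.000745. Mgll measured 1.32 at 7 weeks and 1.48 at 24 weeks (adjusted p = 0.299 and 0.0547 in this fit), and its 13-week value was higher by 0.97 (SE 0.33) with an adjusted p of 0.0283. Among the decreases, Zfc3h1 measured -0.04 and -0.06 at the other ages and Crocc -0.10 and -0.11, with differences of -1.85 (SE 0.12) and -1.85 (SE 0.33). Clec2h itself measured -0.34 and 0.05 at 7 and 24 weeks, and its difference of 1.52 (SE 0.60) had an adjusted p of 0.0518.

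**Figure D5:**
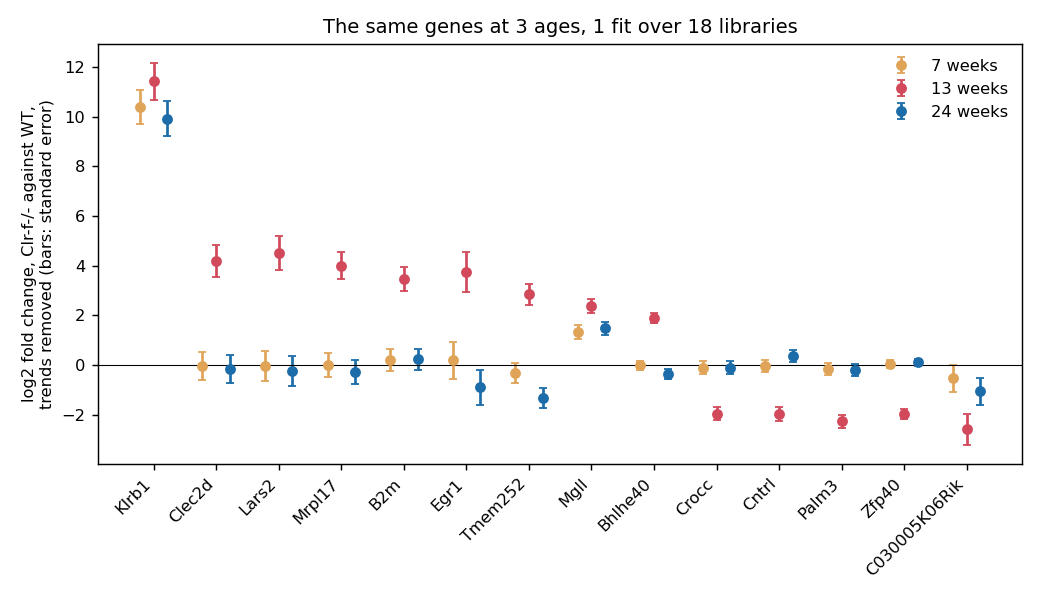
Log2 fold change of 14 genes at 7, 13 and 24 weeks, Clr-f-/- against WT, from 1 fit over 18 libraries with trends removed, with standard errors. Klrb1 lies at 9.93 or above at all ages, while Clec2d, Lars2, Mrpl17, B2m, Crocc, Cntrl, Palm3 and Zfp40 lie between -0.27 and 0.36 at 7 and 24 weeks.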

How the data were processed

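Total RNA of whole kidneys was sequenced as paired ends on an Illumina HiSeq instrument. The authors filtered the reads, aligned them to the mouse genome, removed duplicates and deposited 1 table of raw read counts per gene or transcript row, with no normalization. The submitters' processing notes name FastQC 0.11.5, STAR 2.7.5a, DESeq2 1.28.1 and the build GRCm38.p6. Strand and the handling of reads with several matches are not given in the sources used here. Of the 53383 rows, 41967 carry gene and 11416 transcript identifiers.

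GC content and length of the union of exons came from GENCODE M21, which covered 53095 rows (99.46%). For each library the log2 CPM (prior count 0.5) minus the row's mean was fitted by least squares on natural splines (5 degrees of freedom each) of GC content and log2 length, and the fit became an offset in edgeR's quasi-likelihood test over the 6 libraries of 13 weeks. Rows with CPM of at least 1 in 3 libraries and a known GC content were tested, and p-values were adjusted by Benjamini-Hochberg over all of them with a threshold of 0.05. The counts as deposited were tested with TMM scaling. The 13-week effect minus the mean of the 7- and 24-week effects was tested over 18 libraries with offsets. For ranks within classes, genes were divided by 20 GC and 5 length classes. R 4.3.3, edgeR 4.0.16, limma 3.58.1, DESeq2 1.42.0, Python 3.11.15, pandas 2.3.3 and matplotlib 3.10.9 were used, and the tests were tried on simulated counts first.

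Genes were named by rule: the 12 largest changes in each direction among called genes (mean of at least 5 CPM, groups apart, gene identifier, same sign as deposited), up to 3 with the smallest p in each of 39 lists, the Clr and NKR-P1 genes, the 3 largest shifts by the offsets in each direction and the 5 smallest p-values. Members and lists were chosen with earlier results of these data known. Genes at the ends of their classes, the genes shared with 7 weeks, the DNA replication and mitosis list with Mki67, and the fit without replicates 2 and 3 were chosen after the values were seen. The alternatives were other trend fits, scalings, filters and tools, a replicate block, and leaving out each library. Some items are not reported here.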

Additional observations from a re-analysis of the deposited data

Results flagged for a closer look

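The genotype effect at 13 weeks differed from the mean of the effects at 7 and 24 weeks in 6305 of 14893 rows by a test of the difference itself (edgeR quasi-likelihood, 18 libraries, trends removed, adjusted p under 0.05). Of the 101 genes named in the report, 93 were among them, 62 with a higher and 31 with a lower effect at 13 weeks, with adjusted p-values from 9.39e-07 to 0.0496. Most of these genes were chosen for their differences at 13 weeks in the same libraries, so that number is set by the choice and is no result beside the 42.3% of all rows. The 93 include genes that at 13 weeks passed the filter through the libraries in which they were high. Cfd, Cidea, Cidec, Hp, Fosb and Atf3 are among them, and their adjusted p-values are not used as support. The values that follow are the differences between the 13-week effect and the mean of the effects at 7 and 24 weeks, on the log2 scale.

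Clec2d, which encodes Clr-b, differed by 4.29, and its neighbours BC064078 and 2310001H17Rik by 1.36 and 2.50. Of the fat cell genes, Cfd differed by 5.65, Cidea by 5.17, Cidec by 4.06, Thrsp by 3.94 and Hp by 4.11. All of these but Thrsp passed the filter of the main comparison through the libraries in which they were high, so their values are a description. The differences of Lars2, Gm15564, Fcgbp and Bhlhe40 were 4.65, 4.16, 4.13 and 2.09. The mitochondrial ribosome genes Mrpl17, Mrpl57, Mrpl15, Mrps30 and Mrpl16 had differences of 4.14, 3.34, 2.99, 2.66 and 2.52. Among genes of the respiratory chain, Atp5l differed by 2.703, Atp5f1 by 1.27, Ndufv2 by 1.86 and mt-Nd3 by 2.21, and the cytosolic ribosomal gene Rps20 by 2.05.

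The immediate early genes Fosb, Egr1 and Atf3 differed by 6.97, 4.10 and 4.37, the chaperone gene Hsp90aa1 by -1.15, and Xbp1 and Manf of the endoplasmic reticulum by 1.49 and 1.77. The values of Fosb and Atf3 are a description, since both passed the filter of the main comparison through the libraries in which they were high. The differences of the immune genes were 3.25 for B2m, 2.67 for Cxcl9, 1.92 for Cxcl10, 2.35 for H2-Aa, 1.41 for H2-Eb1 and -1.001 for Cx3cr1. Red blood cell genes differed by 2.89 for Hbb-bs and 1.81 for Hba-a1. Stromal and vascular genes differed by 1.61 for Acta2, 2.49 for Dcn, 1.92 for Col1a2, 1.45 for Fbln5 and 1.63 for Emcn. Col4a3 and Col16a1 of the matrix differed by -1.61 and -1.80, and Vim, Spp1 and Cdkn1a by 1.05, -1.84 and 1.33.

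Of the tubule genes, Slc15a2 differed by 1.96, Slc17a3 by 1.90, Slc22a6 by 1.69, Abcg2 by 1.22, Cubn by 1.74, Fxyd4 by 1.18 and Tmem252 by 3.68. Of the metabolic genes, Mgll differed by 0.97, Acaca by 2.65, Hadhb by 1.79, Ebp by 2.97, Nsdhl by 1.79, Gsta3 by 1.57, Cyp2e1 by 2.94 and Chpt1 by 1.93. The lysosomal genes Ctsh, Npc1 and Asah1 had differences of 1.57, 1.15 and 0.74, and Tmem160 had 1 of 1.02.

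Among the genes lower at 13 weeks, Crocc differed by -1.85, Cntrl by -2.12, Cep250 by -1.80, Cep131 by -1.89, Ninl by -2.06 and Lrrc45 by -1.74. The cilium genes Cep290 and Kif3a differed by -1.68 and -0.94. Zinc finger genes differed by -2.05 for Zfp40, -1.89 for Zfp101, -1.86 for Zfp946, -1.42 for Zfp932, -1.31 for Zfp942 and -1.85 for Zfc3h1. The splicing genes Hnrnpc and Sf3b3 had differences of 1.48 and 1.91 and Luc7l3 of -1.10. Neat1, C030005K06Rik, E130102H24Rik and 2900052L18Rik differed by -2.38, -1.81, -1.95 and -2.06, and Palm3, Frs3, AI480526, Fam208b, Paxbp1, Fgfbp3 and Mki67 by -2.08, -1.78, -2.15, -1.88, -1.87, -1.61 and -2.33.

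The other 8 genes were not past the threshold. These were Klrb1 at 1.27, Clec2h at 1.52, the fat cell genes Adipoq and Plin1 at 4.71 and 4.63, Ehd3, Pecam1 and Vcam1 at 0.71, 0.61 and 0.71, and Fga at -0.77. The library property of the 3 Clr-f-/- libraries of 13 weeks and the age cannot be told apart in this test.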

How the results depend on the processing

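In all of the 1179 calls the groups did not overlap once the trends were removed. Kept signs with another tool, a block or 1 library left out were thus largely set in advance and do not measure stability. All 1179 kept their sign with splines of 3 or 10 degrees of freedom, class medians, GC content alone, abundance added, a robust fit, DESeq2, voom, the replicate block and 18 libraries. By contrast 1173 did so with an interaction of GC content and length and with the longest transcript, 1175 with no filter, 1027 with length alone and 974 without offsets. The number of calls fell to 8 with class medians, 1 with GC content alone, 12 with abundance added, 6 with a robust fit and 5 with at least 10 counts in every library. It was 578 with a log2 fold change of at least 1.5. It rose to 5352 without offsets, 6307 with length alone, 3330 with no filter, 4249 with DESeq2, 6684 with voom, 7502 with 18 libraries and 3750 without replicates 2 and 3 of Clr-f-/-. This last fit sets 1 library against 3 and takes its spread from WT alone, so the lone library is assumed to vary like WT. Leaving out 1 library gave 0 to 7799 calls. As deposited, the count of 5352 became 0 with library totals alone (5346 with an unadjusted p under 0.05), 3508 with at least 10 counts, 9954 with voom and 0 to 10817 without 1 library, and DESeq2 gave 7758. The 6305 rows that differed between ages became 9459 without offsets and 5175 to 8924 without 1 library. Where the number changed, the cause was not tested.

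The replicate numbers did not pair the libraries: deviations of same-numbered WT and Clr-f-/- libraries correlated with r = -0.025, -0.037 and -0.005. With a replicate block the count went from 1179 to 7 with trends removed, from 5352 to 4701 as deposited (1792 higher, 2909 lower) and from 6305 to 5502 between ages.

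Of the 92 named genes called, 79 kept their direction in every alternative in which they were tested, since genes under the filter drop out of some. Without offsets the log2 fold change turned to -0.97 for Abcg2, -0.86 for Asah1, -0.64 for Atp5f1, -0.98 for Chpt1, -0.30 for Clec2h, -0.10 for Emcn, -0.27 for Gsta3, -0.24 for Hadhb, -0.54 for Hnrnpc, -0.027 for Slc15a2, -0.35 for Slc17a3 and -0.67 for Vcam1. With length alone it turned to -0.35 for Abcg2, -0.84 for Asah1, -0.51 for Atp5f1, -0.0096 for BC064078, -0.23 for Chpt1, -0.41 for Clec2h, -0.093 for Gsta3, -0.37 for Hnrnpc, -0.054 for Ndufv2, -0.022 for Vcam1 and -0.31 for mt-Nd3. With the interaction mt-Nd3 turned to -0.36. Of 39 list medians, 25 kept their sign in all 11 alternatives compared and 31 in those with offsets.

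The median gene of the lowest GC class stood at 0.0614 and 0.108 times WT in libraries 2 and 3, so many such genes rested on fewer counts there. A difference that follows GC content or length in all genes is removed by the offsets whatever its source. Counts cover whole genes, so the deleted exons of Clec2h were not measured apart.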

Other observations

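Long non-coding rows lay below protein-coding rows with trends removed. The median log2 fold change was -0.31 for 254 lincRNA rows (8 rose, 23 fell), -0.36 for 236 antisense rows (6 rose, 12 fell) and -0.27 for 145 processed transcripts (5 rose, 13 fell), against 0.09 for 12651 protein-coding rows (715 rose, 354 fell) and 0.03 for 218 processed pseudogenes (5 rose, 1 fell). The 12 rows of miRNA genes lay above them, with a median of 1.77 (3 rose, none fell). Their medians in replicates 1, 2 and 3 were 0.34, 1.85 and 2.38, so replicate 1 showed little of it. In the lincRNA rows the medians of replicates 1, 2 and 3 were -0.32, -0.28 and -0.56. At 7 and 24 weeks their medians were 0.01 and 0.05. The lincRNA rows were less abundant than the protein-coding rows, with a median of 2.52 against 22.7 CPM, and the part of abundance in the difference was not tested.

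Several lists gave no call and stood in no comparison of the report. The median log2 fold change was -0.24 for 9 replication-dependent histone genes, and 1 neutrophil marker was tested, at -1.30. Of the olfactory and vomeronasal receptor genes 5 were tested with a median of -0.51 that changed sign in 3 of 11 alternatives.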
